A study of Homo sapiens with 10 samples.

Results

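The genes described here, WBP4, NAB2, STAT6, HES1 and VPS72, are 5 genes assigned to 4 of the best-scoring peaks of IRF4 in a melanoma cell line. They were selected on the peak scores of 2 ChIP-seq replicates: peaks present in both lists were ordered by the sum of their score ranks, and the rule assigns genes to the top of that order by their promoters, an assignment that distances between NAB2 and STAT6 go against for STAT6 (given with the peaks). The 4 peaks belong to 4697 peaks of replicate 1 that overlapped a peak of replicate 2 by at least 1 base, out of 7568 peaks in replicate 1 and 12831 in replicate 2. The scores are therefore given as a description, with no test. The rule itself uses no RNA value, and RNA abundance was compared between knockdown and control, though the genes were proposed with earlier results of these data known.

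All samples were 501Mel cells, an established human melanoma line. For ChIP-seq, which maps the DNA bound by a protein, the cells carried IRF4 tagged with eGFP, a green fluorescent protein, so the peaks describe the tagged protein and not the IRF4 that the cells make themselves. The 2 input samples were not analysed here. For RNA-seq of polyadenylated RNA, cells had received the small interfering RNA siIRF4 (3 libraries) or siCTRL (3 libraries), and no tag is named for them. Nothing in the labels says whether the 3 libraries of a group came from separate cultures, so p-values measure the spread between libraries, which may be technical.

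IRF4 is a transcription factor of the interferon regulatory factor family, best known in lymphocytes and also active in pigment cells, where it takes part in the control of melanin genes together with MITF. The 5 genes have unlike roles. HES1 is a basic helix-loop-helix repressor and a direct target of Notch signalling. NAB2 is a co-repressor that binds the EGR zinc-finger factors, and STAT6 is the transcription factor that answers interleukin-4 and interleukin-13. WBP4, also called FBP21, is a splicing factor that joins the spliceosome before its activation. VPS72, also called YL1, binds the histone variant H2A.Z and belongs to the SRCAP and TIP60 chromatin complexes.

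Total estimated counts lay between 129989698 and 203758441 per RNA library. The files list transcripts by identifier and pair none with a gene. 4 of the 5 genes were followed through the single transcript that the selection rule names for each, which is not the sum over the gene's transcripts. For STAT6 the rule names no transcript, so the RNA level of STAT6 was not analysed here. The level of IRF4 was not analysed here for the same reason, and the knockdown was not checked on its target. The libraries did not part by label. On the first principal component of log2 CPM (CPM being counts per 1000000 of a library), with 33.6% of the variance, one side held siIRF4 replicates 2 (199) and 3 (80.8) and siCTRL replicate 2 (132). On the other side were siIRF4 replicate 1 (-111) and siCTRL replicates 1 (-128) and 3 (-173). Values without siIRF4 replicate 1 and siCTRL replicate 2 are given beside those from all 6 libraries. In the 4 libraries that remain, the labels and the sides of the first component coincide by construction, so these values cannot tell the siRNA apart from that component and are given as a description, with no test.

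The DNA around the start of each gene is shown first, because the peaks were assigned to these promoters. The sequences are RefSeq's in GRCh38.p14, from 250 bases before the start site to 50 bases after it, written 5′ to 3′ on the gene's strand. The table used here held 4 of the 5 genes, and VPS72 was not among them. The peaks carry contig names of hg19, so positions of peaks and promoters were not laid over each other. Capitals mark GTGGGAA (the core of RBPJ sites, through which Notch acts), GCGNGGGCG (EGR sites), GGGCGG (Sp1 sites) and CCAAT, on either strand. In NAB2, the EGR match and an Sp1 match overlap.
HES1, chr3:194135898-194136197, plus strand: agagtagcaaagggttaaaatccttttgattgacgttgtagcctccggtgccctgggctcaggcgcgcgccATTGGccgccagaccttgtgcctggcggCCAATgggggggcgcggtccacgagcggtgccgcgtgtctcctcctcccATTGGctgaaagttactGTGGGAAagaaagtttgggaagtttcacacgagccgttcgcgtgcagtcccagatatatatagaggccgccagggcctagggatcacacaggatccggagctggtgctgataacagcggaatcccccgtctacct
NAB2, chr12:57088864-57089163, plus strand: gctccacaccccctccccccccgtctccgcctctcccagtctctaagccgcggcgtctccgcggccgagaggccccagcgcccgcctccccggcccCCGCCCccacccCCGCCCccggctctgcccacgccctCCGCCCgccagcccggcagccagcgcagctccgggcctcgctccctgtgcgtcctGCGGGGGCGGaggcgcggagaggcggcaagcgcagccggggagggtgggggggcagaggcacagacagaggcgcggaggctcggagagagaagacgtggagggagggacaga
STAT6, chr12:57110240-57110539, minus strand: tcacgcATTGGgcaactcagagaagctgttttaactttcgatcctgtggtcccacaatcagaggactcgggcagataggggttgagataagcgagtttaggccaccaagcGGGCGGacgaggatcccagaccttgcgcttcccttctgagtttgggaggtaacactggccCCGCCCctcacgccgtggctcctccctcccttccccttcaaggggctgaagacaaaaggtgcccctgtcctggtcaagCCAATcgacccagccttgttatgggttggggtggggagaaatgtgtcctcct
WBP4, chr13:41061259-41061558, plus strand: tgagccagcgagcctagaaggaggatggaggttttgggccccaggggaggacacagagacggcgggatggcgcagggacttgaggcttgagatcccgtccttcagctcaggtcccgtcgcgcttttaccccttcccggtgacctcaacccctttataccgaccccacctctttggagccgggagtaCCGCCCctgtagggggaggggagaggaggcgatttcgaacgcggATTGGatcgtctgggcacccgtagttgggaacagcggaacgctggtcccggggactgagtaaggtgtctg

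Each promoter held letters of general promoter elements. All matches in the 4 windows belong to motifs that were added once the promoters were at hand, while the 8 motifs listed earlier had none, so the shares over all promoters are given for orientation only. The HES1 window had CCAAT at 3 places, first bases at -179, -151 and -102 from the start site, and TATATA at -31 and -29. It had GTGGGAA at -85, which 6.2% of the 35114 promoters of the same length held on either strand. The NAB2 window had GCGNGGGCG at -62, a match found in 9.4% of all promoters, and GGGCGG at 4 places. STAT6 had GGGCGG at 2 places and CCAAT at 2, and WBP4 had 1 of each. Over all promoters, 45.0% held GGGCGG, 34.6% CCAAT and 4.0% TATATA. GCCNNNGGC, letters of TFAP2 sites, lay at 2 places in HES1 and 1 in NAB2, against 23.2% of promoters with a match. TTC and GAA with 4 bases between them, the repeat that STAT6 binds, lay in none of the 4 windows and in 6.4% of all promoters. A match is a description of letters and not a bound site.

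None of the letters searched for IRF binding lay in the 4 windows. Searched on both strands were GAAA repeated with 2 bases between the copies (the core of interferon-stimulated response elements, present in 3.6% of all promoters), the same with 3 copies (0.154%), GGAA followed after 2 bases by GAAA (the composite with ETS factors, 2.8%), and TGANTCA joined to GAAA in 2 spacings (composites with AP-1, 0.114% and 0.162%). TGANTCA alone (7.7% of promoters), CANNTG (the E-box, 68.7%) and CACGTG (the E-box core that MITF binds, 7.3%) were not in the 4 windows either. The windows span 300 bases, while the member peaks span 1350 to 5977 bases in replicate 1. The absence says only that these letters are not in these windows.

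Base composition differed among the promoters. NAB2 was the richest in G and C, at 78.3% with 33 CpG dinucleotides, above 95.5% of all promoters for G and C and above 82.8% for CpG. WBP4 and HES1 had 62.7% and 59.0% G and C, with 21 CpG each. STAT6 had 57.7% and 12 CpG. The medians over all promoters were 58.7% and 14 CpG, so STAT6 and HES1 lay near the middle.

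The WBP4 peak was first in the combined order. It ran over chr13:41633771-41636495 in replicate 1 with a score of 2272.09, rank 5 in that list. In replicate 2 it ran over chr13:41633998-41636478 with a score of 3100, a value that 4 peaks of that list share at rank 3. The replicate 2 peak lay wholly inside that of replicate 1, and the centres were 105 bases apart. It was also the most solitary of the 4 sites. 1 other peak lay within 100 kb in each list, with a gap of 69024 bases in replicate 1 and 69308 bases in replicate 2. The median peak had 1 such neighbour in replicate 1 and 2 in replicate 2.

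The NAB2 peak was second in the order and the widest of the 4 in replicate 1. There it ran over chr12:57480358-57486334, 5977 bases, wider than 99.6% of the list, with a score of 1908.29 (rank 8). In replicate 2 the same stretch held 2 peaks. The larger, chr12:57479596-57482959, scored 2906.39 (rank 8), and the smaller, chr12:57483251-57484546, scored 379.36 (rank 3505). The larger one overlapped 43.5% of the replicate 1 peak, and their centres lay 2068.5 bases apart.

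STAT6 was placed at this same peak by the selection rule, but distances between the genes go against a shared promoter peak. In GRCh38 the RefSeq start sites used for the sequences above are 21175 bases apart, and the spans of the genes meet at their far ends, where they overlap by 69 bases. A peak of 5977 bases cannot hold both start sites at that distance, provided the distance is alike in hg19, which was not checked. A separate shared peak lay farther along, at chr12:57503598-57506467 in replicate 1 (score 519.47, rank 567) and chr12:57503006-57506513 in replicate 2 (score 1583.58, rank 105). Its centre was 21686.5 bases from that of the NAB2 peak in replicate 1 and 23482 bases in replicate 2. It took place 142 among the 4697 shared peaks, above 97.0% of them. Whether it covers a STAT6 start site was not tested. Only reads lying wholly within the 69 bases shared by NAB2 and STAT6 cannot be told apart unless strand was used. The sources used here do not say whether it was.

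The HES1 peak took place 3. In replicate 1 it ran over chr3:193851203-193853406 with a score of 1964.5 (rank 7), and in replicate 2 over chr3:193851280-193856349 with a score of 2840.73 (rank 11). The replicate 2 peak was 5070 bases wide, wider than 99.4% of its list. It also overlapped a further peak of replicate 1, which lay 780 bases beyond the first and scored 131.34. HES1 lay in a group of peaks: 2 others within 10 kb in replicate 1 and 3 in replicate 2, with 3 and 6 within 100 kb. All of these scored between 115.02 and 481.98, well under the peak assigned to HES1.

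The VPS72 peak took place 5, with the most unequal ranks of the 4. In replicate 1 it ran over chr1:151162012-151163361 with a score of 1465.72 (rank 27), and in replicate 2 over chr1:151161937-151163352 with a score of 3108.05 (rank 2). It was the narrowest, 1350 and 1416 bases, close to the median widths of 1309 and 1290 bases. Its centres agreed best, 42 bases apart. It had 6 other peaks within 100 kb in replicate 1 and 5 in replicate 2, of which the strongest scored 1013.82 in replicate 2. In RefSeq order VPS72 lies between TMOD4, which encodes a tropomodulin of muscle, and PIP5K1A, which encodes a phosphatidylinositol phosphate kinase.

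**Figure D1:**
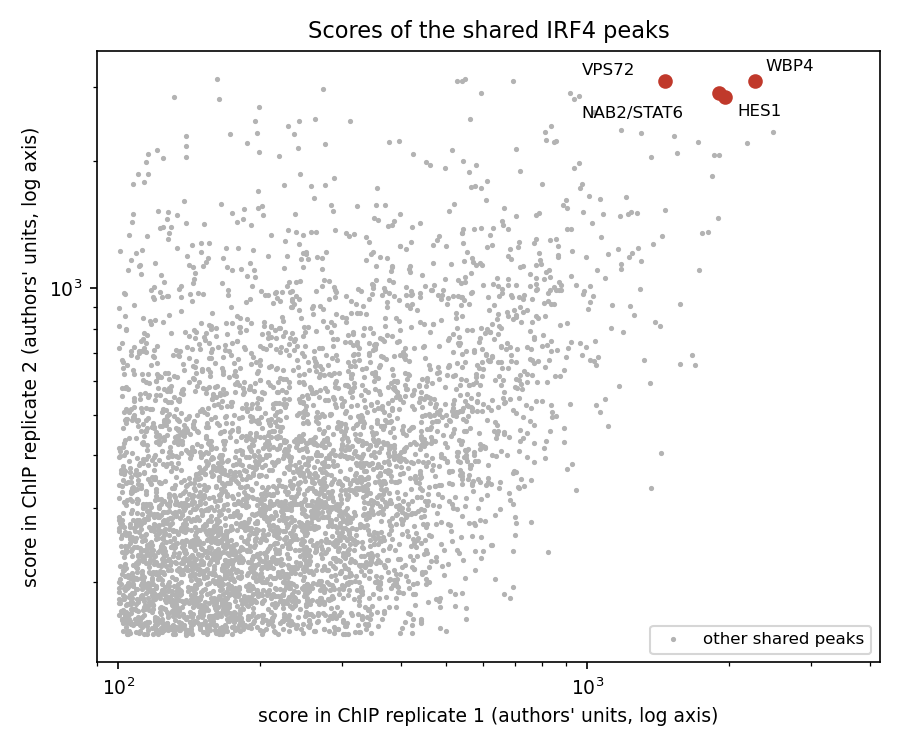
Score in ChIP replicate 1 (horizontal, log axis) against the score in replicate 2 (vertical, log axis) for the 4697 shared peaks, in the authors' units. The 4 peaks of the member genes (red) lie at the upper right, from 1465.72 to 2272.09 in replicate 1 and from 2840.73 to 3108.05 in replicate 2, because the scores chose them.

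The order had a peak with no gene named in the rule among the members. It lay at place 4, on chromosome 2 from 145272991 to 145275845 in replicate 1, with ranks 4 and 22 that sum to 26. VPS72, just inside the selection, had ranks that sum to 29. The first peak outside had a sum of 43, on chromosome 2 from 191884691 to 191885785 in replicate 1 (scores 2185.43 and 2207.91), and the sums at places 7 to 10 were 53, 54, 59 and 62. Some peaks that scored higher in a single list are absent from the order: the 3 best of replicate 1 overlapped no peak of replicate 2. Those of replicate 2 at ranks 1 to 10 all overlapped a peak of replicate 1, but only WBP4, NAB2 and VPS72 of these were members.

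**Figure D2:**
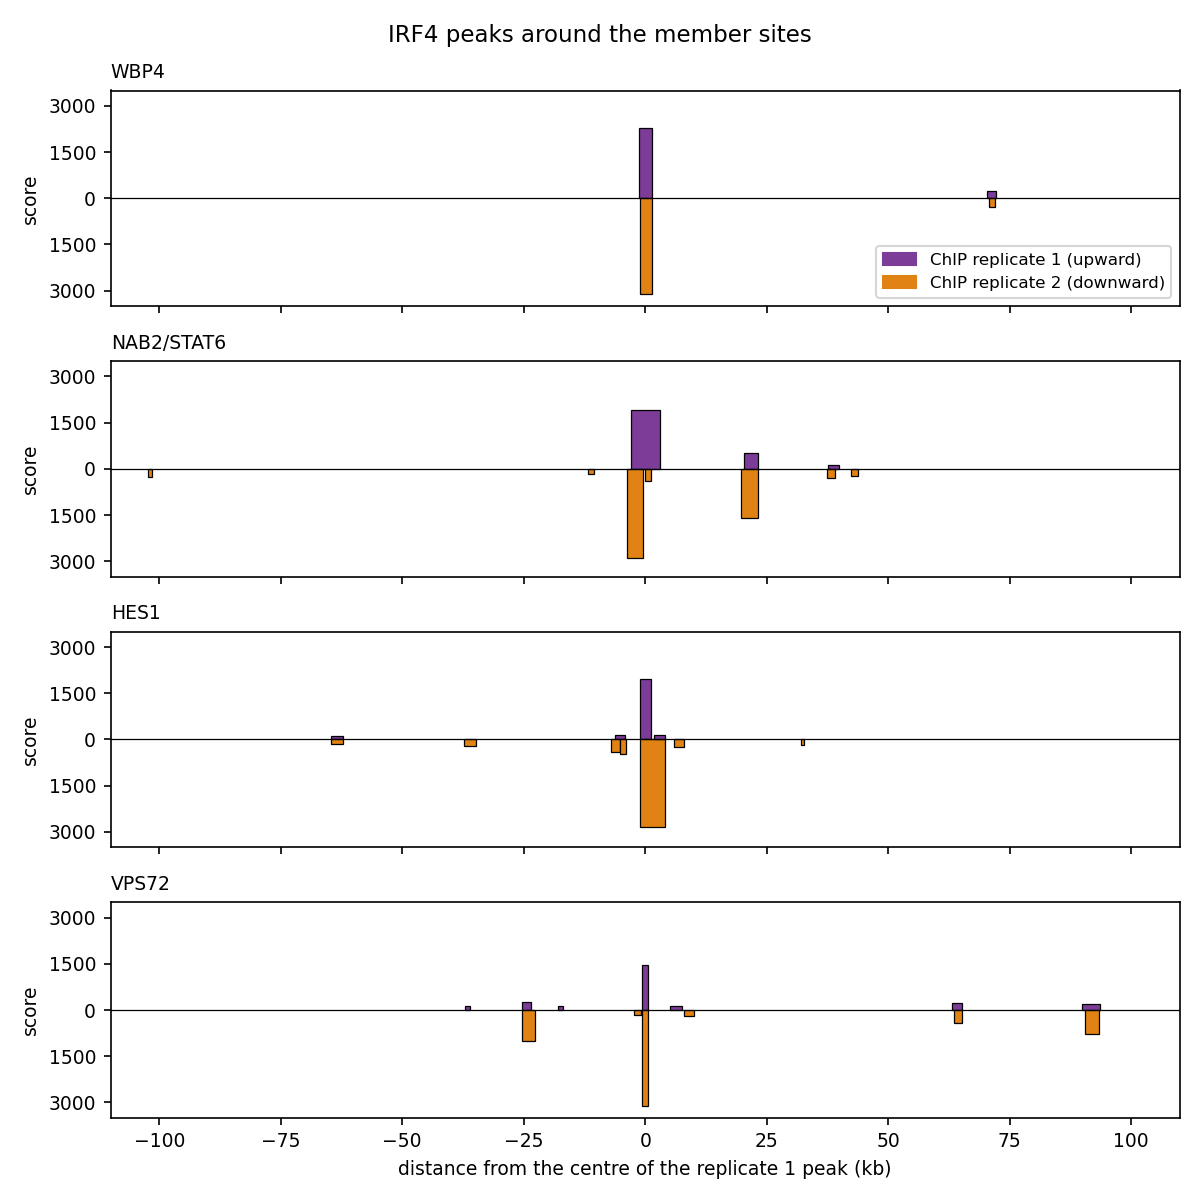
Peaks within 100 kb of the 4 member sites: distance from the centre of the replicate 1 peak in kb (horizontal), the authors' score as bar height and the peak's width as bar width, with replicate 1 upward and replicate 2 downward. WBP4 has 1 distant neighbour in each list. NAB2/STAT6 has a second site 21686.5 bases away in replicate 1, which scores 519.47 there and 1583.58 in replicate 2. HES1 and VPS72 lie among peaks lower than their own, up to 481.98 near HES1 and 1013.82 near VPS72, both in replicate 2.

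The RNA comparison asked whether the transcripts of these genes differ between the siRNAs. In an edgeR quasi-likelihood fit of 83831 transcripts, 0 of the 4 member transcripts passed an adjusted p of 0.05, as did 0% of all those tested. Without adjustment, 2.14% of all transcripts had a p under 0.05 and 0 of the 4 members did. The CPM ranges of the groups were separate for 0 of the 4 members and for 7.11% of all transcripts. DESeq2 called 192 transcripts and limma on log2(TPM + 0.1) called 8, and neither called a member. TPM, used for levels below, is abundance per transcript length scaled to 1000000 per library.

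HES1 had the most abundant of the 4 transcripts followed, in TPM though not in CPM. Its transcript ENST00000232424.3 (1578 bases) had 28.7, 31.6 and 28.2 TPM in siIRF4 replicates 1, 2 and 3 and 33.4, 31.2 and 28.0 TPM in siCTRL replicates 1, 2 and 3. In TPM the highest and the lowest value both belonged to siCTRL, so the siIRF4 values lay inside the control range. This did not hold in CPM with TMM scaling. There siIRF4 replicate 3 was the lowest (24.46 CPM), under the lowest siCTRL value (26.07 CPM, replicate 3). The means were 29.5 ± 1.85 TPM (SD, n = 3) in siIRF4 and 30.9 ± 2.70 TPM in siCTRL. The log2 fold change of siIRF4 over siCTRL was -0.05 (SE 0.143, 95% interval -0.39 to 0.29), with an edgeR adjusted p of 1. The interval spans a fold of 0.761 to 1.22. The sign was positive without siIRF4 replicate 3 (0.024) and without siCTRL replicate 1 (0.0037), and negative in the 14 other alternatives. Without siIRF4 replicate 1 and siCTRL replicate 2 it was -0.051.

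NAB2 had the steadiest of the 4 transcripts by the SD of log2 CPM. HES1 came close among siCTRL libraries (0.115 against 0.108 for NAB2), less so among siIRF4 libraries (0.152 against 0.066). The NAB2 transcript ENST00000300131.7 (2711 bases) had 21.4, 20.2 and 21.6 TPM in siIRF4 replicates 1, 2 and 3. It had 21.0, 18.2 and 18.9 TPM in siCTRL replicates 1, 2 and 3. Only siCTRL replicate 1 reached into the siIRF4 range. Its log2 CPM had an SD of 0.066 among siIRF4 and of 0.11 among siCTRL libraries, against medians of 0.20 and 0.21 over the 3345 transcripts of like abundance (within 0.5 log2 units). The means were 21.1 ± 0.723 TPM and 19.4 ± 1.46 TPM (SD, n = 3 each). The log2 fold change was 0.12 (SE 0.126, 95% interval -0.18 to 0.42, edgeR adjusted p of 1), a fold between 0.882 and 1.34. It stayed positive in all 16 alternative fits and was 0.041 without siIRF4 replicate 1 and siCTRL replicate 2.

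WBP4 varied more between libraries than its abundance class, as VPS72 did (given below). Its transcript ENST00000379487.4 (2623 bases) had 12.0, 17.0 and 18.6 TPM in siIRF4 replicates 1, 2 and 3, and 9.78, 17.2 and 12.8 TPM in siCTRL replicates 1, 2 and 3. The 3 high libraries were siIRF4 replicates 2 and 3 and siCTRL replicate 2, the same 3 that lay on the positive side of the first principal component, and the part of that component in the result was not tested. The means were 15.9 ± 3.42 TPM in siIRF4 and 13.2 ± 3.71 TPM in siCTRL (SD, n = 3 each). Its log2 CPM had an SD of 0.28 among siIRF4 and of 0.40 among siCTRL libraries, against medians of 0.21 and 0.23 over 3767 transcripts of like abundance.

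The log2 fold change of WBP4 was 0.26 (SE 0.248, 95% interval -0.34 to 0.85, edgeR adjusted p of 1). Single libraries moved it: it was 0.079 without siCTRL replicate 1, 0.40 without siIRF4 replicate 1 and 0.485 without siCTRL replicate 2. Without siIRF4 replicate 1 and siCTRL replicate 2 together it was 0.63. These are the siIRF4 library with the lowest WBP4 value and the siCTRL library with the highest, so leaving them out had to raise the difference.

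VPS72 was measured on a scarce transcript. ENST00000354473.4 (1347 bases) had 1.66, 1.14 and 0.926 TPM in siIRF4 replicates 1, 2 and 3, and 0.617, 1.07 and 1.28 TPM in siCTRL replicates 1, 2 and 3. The groups overlapped widely, with the highest value in siIRF4 replicate 1 and the lowest in siCTRL replicate 1. Its estimated counts lay between 70.1 and 177.1 per library, against 2458.6 or more for the other 3 transcripts. Its log2 CPM had an SD of 0.48 among siIRF4 and of 0.55 among siCTRL libraries. The medians over 9657 transcripts of like abundance were 0.40 and 0.43. The means were 1.24 ± 0.378 and 0.991 ± 0.340 TPM (SD, n = 3 each), and the log2 fold change was 0.35 (SE 0.407, 95% interval -0.62 to 1.33, edgeR adjusted p of 1). The interval spans a fold of 0.651 to 2.51. It was 0.060 without siIRF4 replicate 1, 0.10 without siCTRL replicate 1 and 0.12 without siIRF4 replicate 1 and siCTRL replicate 2. It was 0.56 without siIRF4 replicate 3 and 0.60 without siCTRL replicate 3. Other VPS72 transcripts were not added to it, so it does not give the level of the gene.

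**Figure D3:**
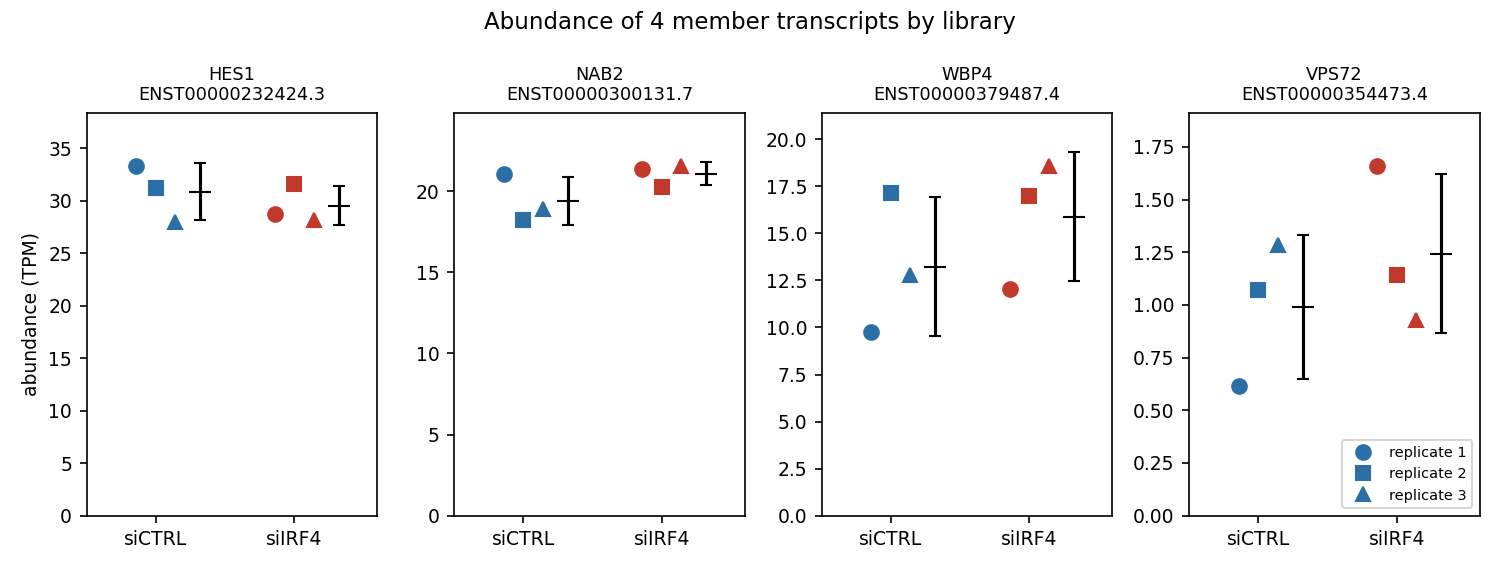
Abundance in TPM (vertical, from 0, with its own scale in each panel) of the transcripts followed for HES1, NAB2, WBP4 and VPS72 in the 3 siCTRL (blue) and 3 siIRF4 (red) libraries, with the mean and SD of each group beside the points. The groups overlap in every panel, and WBP4 has 3 high and 3 low libraries that cross the labels.

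The order of levels was HES1, NAB2, WBP4 and VPS72, on the TPM scale. In CPM with TMM scaling, which takes no account of transcript length, NAB2 had the higher mean (34.97 against 27.89 for HES1). The lowest HES1 value, 28.0 TPM, was above the highest NAB2 value, 21.6 TPM. NAB2 and WBP4 overlapped across libraries (18.2 TPM at the lowest for NAB2, 18.6 TPM at the highest for WBP4), though NAB2 was the higher in each of the 6 libraries. WBP4 stayed above VPS72, at 9.78 TPM against 1.66 TPM. By mean TPM, HES1 lay above 97.5% of the 187626 listed transcripts, NAB2 above 96.5%, WBP4 above 95.4% and VPS72 above 78.3%. Among the 142857 with a mean TPM above 0, the shares were 96.7%, 95.4%, 94.0% and 71.4% in the same order.

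The 4 transcripts did not move together over the 6 libraries. Pearson's r of log2 CPM between pairs ran from -0.374 for NAB2 with WBP4 to 0.25 for WBP4 with VPS72, as a description over 6 libraries that form clusters. Among 13448 other transcripts averaging 10 CPM or more, the 3 most like WBP4 had r of 0.9976, 0.9971 and 0.9962, and 259 exceeded 0.95. For HES1 the 3 highest were 0.9925, 0.9832 and 0.9792, with 18 over 0.95. For NAB2 they were 0.9683, 0.9629 and 0.9628, with 9 over 0.95, and for VPS72 (13449 compared) 0.9848, 0.982 and 0.9806, with 27. How many values over 0.95 unrelated transcripts would give over 6 libraries was not computed. These counts are therefore a description and do not show that the transcripts are regulated together. Gene names for these transcripts were not given in the files.

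**Figure D4:**
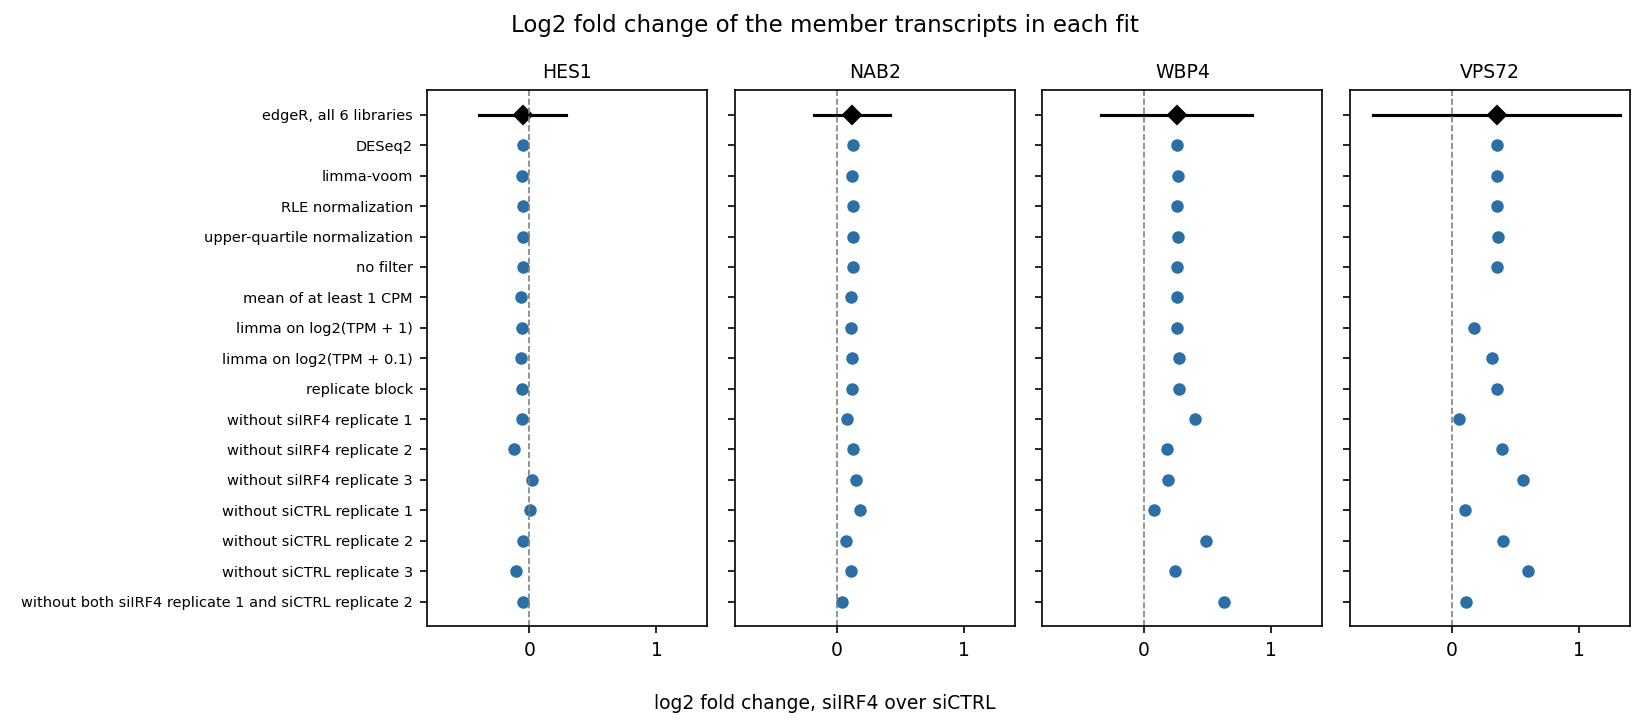
Log2 fold change of siIRF4 over siCTRL (horizontal) for each member transcript in the edgeR fit of all 6 libraries (black diamond with its 95% interval) and in each alternative fit (blue points, named at the left). The 95% intervals include 0 for all 4, HES1 stays near 0, and WBP4 and VPS72 shift most when single libraries are left out.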

How the data were processed

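RNA abundance was read from 6 tables, one per library, with estimated counts and TPM as deposited by the authors. The headers are those of kallisto, which the submitters' processing notes name with sleuth and Bowtie2, without versions or roles. These notes list the builds GRCh38 and hg19, also without roles. The ChIP-seq peak lists, one per replicate, hold a score that the authors deposited per peak. Its definition, the peak caller's version and its threshold are not given in the sources used here. Contig names in the lists are those of hg19.

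Counts were fitted per transcript, since no table paired transcripts with genes. The pathway lists, cell type markers and counts per gene laid down for this work were therefore not analysed here. Estimated counts were rounded to whole numbers and tested with edgeR 4.0.16 in R 4.3.3 (quasi-likelihood, TMM, filterByExpr, no block, two-sided, Benjamini-Hochberg adjustment over 83831 transcripts). The filter kept 99.87% of the estimated count, and all 4 member transcripts passed it. SEs are the absolute log2 fold change over the square root of F, and 95% intervals use the fit's degrees of freedom. DESeq2 1.42.0, limma 3.58.1 and other settings were alternatives. Log2 CPM had a prior count of 2.

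The rule for named items covered the 5 genes, their pathway lists, the 3 transcripts most like each member, neighbouring genes and the 10 best shared peaks. The members, lists and rules were chosen with earlier results of these data known. Of 15 motifs searched, 7 were added after the promoters were at hand.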

Additional observations from a re-analysis of the deposited data

How the results depend on the processing

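In the comparison of siIRF4 with siCTRL, 0 transcripts passed an adjusted p of 0.05 with edgeR, with 1791 at an unadjusted p under 0.05. The count was 0 in 14 of 16 alternatives and 192 with DESeq2 and 8 with limma on log2(TPM + 0.1). The cause of these calls was not tested. The 6 fits that left out 1 library gave 0 calls, with 1575 to 4301 transcripts at an unadjusted p under 0.05. Over all alternatives these numbers ran from 671 of 35950 tested, at a mean of at least 1 CPM, to 10811 of 85498 tested. The highest came without siIRF4 replicate 1 and siCTRL replicate 2, where labels and first component coincide. The number tested differed between fits, so these counts are not on 1 scale. No member passed the adjusted threshold in any alternative. The fit without siIRF4 replicate 1 and siCTRL replicate 2 is counted among the 16, but as a description and not as a test of the siRNA. Leaving out 1 library gave log2 fold changes from -0.122 to 0.0244 for HES1, where the positive values were 0.0244 and 0.00372, from 0.0768 to 0.181 for NAB2, from 0.0791 to 0.485 for WBP4 and from 0.0596 to 0.6 for VPS72. The other alternatives ran from -0.0619 to -0.0453, 0.041 to 0.128, 0.255 to 0.63 and 0.115 to 0.362 in the same order of genes. VPS72 was not tested at a mean of at least 1 CPM.

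The replicate block, in a paired model, gave 0 calls, 2746 transcripts at an unadjusted p under 0.05 and a WBP4 log2 fold change of 0.277 (unadjusted p of 0.101, adjusted 0.997). With and without the block, the SEs were 0.118 and 0.143 for HES1 and 0.11 and 0.126 for NAB2. They were 0.135 and 0.248 for WBP4, and 0.491 and 0.407 for VPS72. Deviations from the group means correlated at 0.2, 0.24 and 0.038 between libraries numbered 1, 2 and 3. Libraries of unlike numbers were not compared, so these values do not decide whether the numbers pair the libraries. The main fit was run without pairing.

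Among the shared peaks, WBP4 stayed at place 1 in each order tried. All these orders used the same scores that chose the members, so they describe the ranking and give the choice no separate support. Ordered by the lower score percentile, HES1 was at 2, NAB2/STAT6 at 3 and VPS72 at 8. By the sum of log10 scores, NAB2/STAT6 was at 4 and VPS72 at 6. With a reciprocal overlap of 50%, VPS72 was at 3, while the NAB2/STAT6 and HES1 peaks no longer counted as shared. A score minimum of 150 leaves replicate 2, which begins at 150.01, as it is and cannot change places at the top, so it decides nothing. Not run were counts per gene, the level of IRF4 and the pathway lists. ChIP depth is unknown, as the lists give scores only.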
